A study of Mus musculus with 4 samples.

Results

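Oligodendrocytes make the myelin of the central nervous system, and a small set of transcription factors sets their identity and switches on their myelin genes. This account covers 10 of these factors, Sox10, Olig1, Olig2, Myrf, Nkx2-2, Nkx6-2, Zfp488, Tcf7l2, Sox8 and Zeb2, in the brains of Bcas1 knockout mice. They were chosen by name, and every Affymetrix probe set that the platform annotation assigns to 1 of them alone was kept. This gave 18 of 45037 probe sets, which read 9 of the 10 genes, out of 18193 genes with a probe set of their own. The annotation used here named no probe set for Zfp488, a zinc finger protein that promotes oligodendrocyte differentiation, and it was not analysed here.

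Brain RNA of 2 Bcas1 knockout mice (BCAS1 -/-) was set against that of 2 wildtype mice (+/+). All 4 were C57BL/6 males aged 8 to 9 weeks, bred from heterozygous parents. Total RNA of 1 mouse went on each array, and the labels give the tissue both as brain and as cerebrum. They do not describe the disrupted allele, so the knockout is taken here as a loss in the whole body with its exact lesion unstated. Bcas1 itself encodes a protein of myelinating oligodendrocytes.

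The order in which these factors act is well known from the mouse. Olig2 and Nkx2-2 pattern the embryonic domains that give rise to precursors, and Sox10, a high-mobility-group protein, holds the lineage identity from the precursor onward with its close relative Sox8. Myrf, which is itself switched on by Sox10 and Olig2, then binds and activates myelin genes in cells that have left the cell cycle. Tcf7l2 is a nuclear effector of Wnt signalling that marks newly differentiating oligodendrocytes, and Zeb2 counters BMP and Wnt signals that would hold differentiation back. Tcf7l2 is also a marker of thalamic neurons, and Zeb2 is also present in cortical neurons and microglia, so neither reads oligodendrocytes alone in brain tissue.

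RefSeq promoter windows (GRCm38.p6, 250 bases before to 50 after a start) matched 7 of the 10 genes with 11 windows, 4 of them for Zeb2 and 2 for Tcf7l2. Those of Myrf, Olig1 and Sox10 were not matched. A window of 3 factors is shown as an example of letters bound by another factor of the set. Other windows, counted below, hold such letters too and are not shown. The capitals mark ACAAAG or ACAATG, cores recognised by SOX proteins, in Olig2 and Zeb2, and CACCTG, the E-box bound by ZEB proteins, in Nkx6-2. Both strands were searched, so a match on the other strand is printed as its reverse complement.
Olig2, chr16:91225300-91225599, plus strand: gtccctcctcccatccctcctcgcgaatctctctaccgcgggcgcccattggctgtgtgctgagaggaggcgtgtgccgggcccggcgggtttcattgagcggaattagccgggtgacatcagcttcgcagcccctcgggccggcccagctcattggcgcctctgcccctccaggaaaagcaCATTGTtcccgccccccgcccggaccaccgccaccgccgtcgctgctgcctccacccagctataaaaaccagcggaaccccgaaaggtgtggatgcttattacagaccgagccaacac
Zeb2, chr2:45110228-45110527, minus strand: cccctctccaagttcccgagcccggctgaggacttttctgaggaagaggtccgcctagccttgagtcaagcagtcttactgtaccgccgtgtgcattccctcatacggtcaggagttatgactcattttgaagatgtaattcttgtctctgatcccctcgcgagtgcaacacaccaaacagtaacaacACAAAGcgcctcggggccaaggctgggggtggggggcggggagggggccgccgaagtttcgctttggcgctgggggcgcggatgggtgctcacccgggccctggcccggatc
Nkx6-2, chr7:139582748-139583047, minus strand: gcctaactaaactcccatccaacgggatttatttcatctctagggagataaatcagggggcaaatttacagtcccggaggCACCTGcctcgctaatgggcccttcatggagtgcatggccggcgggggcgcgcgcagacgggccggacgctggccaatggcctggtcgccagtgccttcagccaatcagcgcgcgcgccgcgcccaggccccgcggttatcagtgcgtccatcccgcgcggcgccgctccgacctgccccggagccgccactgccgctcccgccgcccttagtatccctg
A SOX core was found in 4 of the 11 windows, 1 of Olig2, 1 of Zeb2 and both of Tcf7l2, against 28.6% of 32851 mouse windows of this length. CACCTG was found in 1 of the 11, against 20.2% of all windows. CANNTG, the E-box that Olig factors bind and of which CACCTG is 1 form, was found in 4 of the 11, against 72.3% of all. These were the windows of Nkx2-2, Nkx6-2, Sox8 and Zfp488, and no window of Zeb2 or Tcf7l2 held it. Zeb2 windows chr2:45113204-45113503 and chr2:45113230-45113529 largely overlap, so the 11 windows are not separate units. CTTTGAT, a core bound by TCF proteins, was found in 0 of the 11, against 3.73% of all. A match describes letters and is not a binding site shown by these data, and these arrays, which read transcript ends, do not tell which start a transcript used.

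Levels are log2 values from RMA, so a difference of 1 is a doubling. The 4 arrays had medians of 6.49 to 6.51 and correlations of 0.996 to 0.998 across probe sets, and in actin controls the probe set at the 3' end exceeded that at the 5' end by 1.14 and 1.15 in the knockout and 1.09 and 1.12 in wildtype. The brightest Bcas1 probe set measured 11.05 and 10.75 in the knockout mice, against 12.17 and 12.21 in the wildtype mice. The difference of -1.29 (SE 0.12) did not pass over the whole table (limma adjusted p = 0.742), and the RNA was still bright. A further 2 dim probe sets of the gene differed by 0.77 and 0.64 in the other direction (limma adjusted p = 1 for both). Neuronal Snap25 and Map2, myelin Cnp and astrocytic Aqp4 were bright on every array. The second knockout array stood apart from the other 3 by nasal transcripts: the 7 measured nasal genes averaged 4.73 in the first knockout mouse and 7.15 in the second, against 4.75 and 4.95 in the wildtype mice. The difference of each of the 18 probe sets is therefore also given without that array where this changes its direction or moves it by more than 1.5 times.

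No factor passed the test. Of the 18 probe sets, 0 were called higher and 0 lower at an adjusted p of 0.05 in limma (lmFit and eBayes, two-sided, Benjamini-Hochberg over all 45037 probe sets), and each of the 18 had an adjusted p of 1. Of all probe sets 0.00444% were called, which is 2. At an unadjusted p under 0.05 limma gave 1 of the 18, Myrf, against 3.42% of all probe sets. The median difference of the 18 was -0.025, beside 0 over all probe sets. In total 6 differences were positive, 11 were negative and 1 was 0, within a range of -0.25 to 0.28. With both knockout arrays above both wildtype arrays there were 3 of 18 (16.7%), against 13.9% of all probe sets. With both below there were 4 of 18 (22.2%), against 13.2%. With 2 arrays a side, no exact permutation test can reach a two-sided p under 0.333, and the number of arrays limits what could be seen: the SE of a difference ran from 0.072 to 0.20 in these probe sets. In whole tissue, fewer cells of a type and less RNA per cell cannot be told apart.

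**Figure D1:**
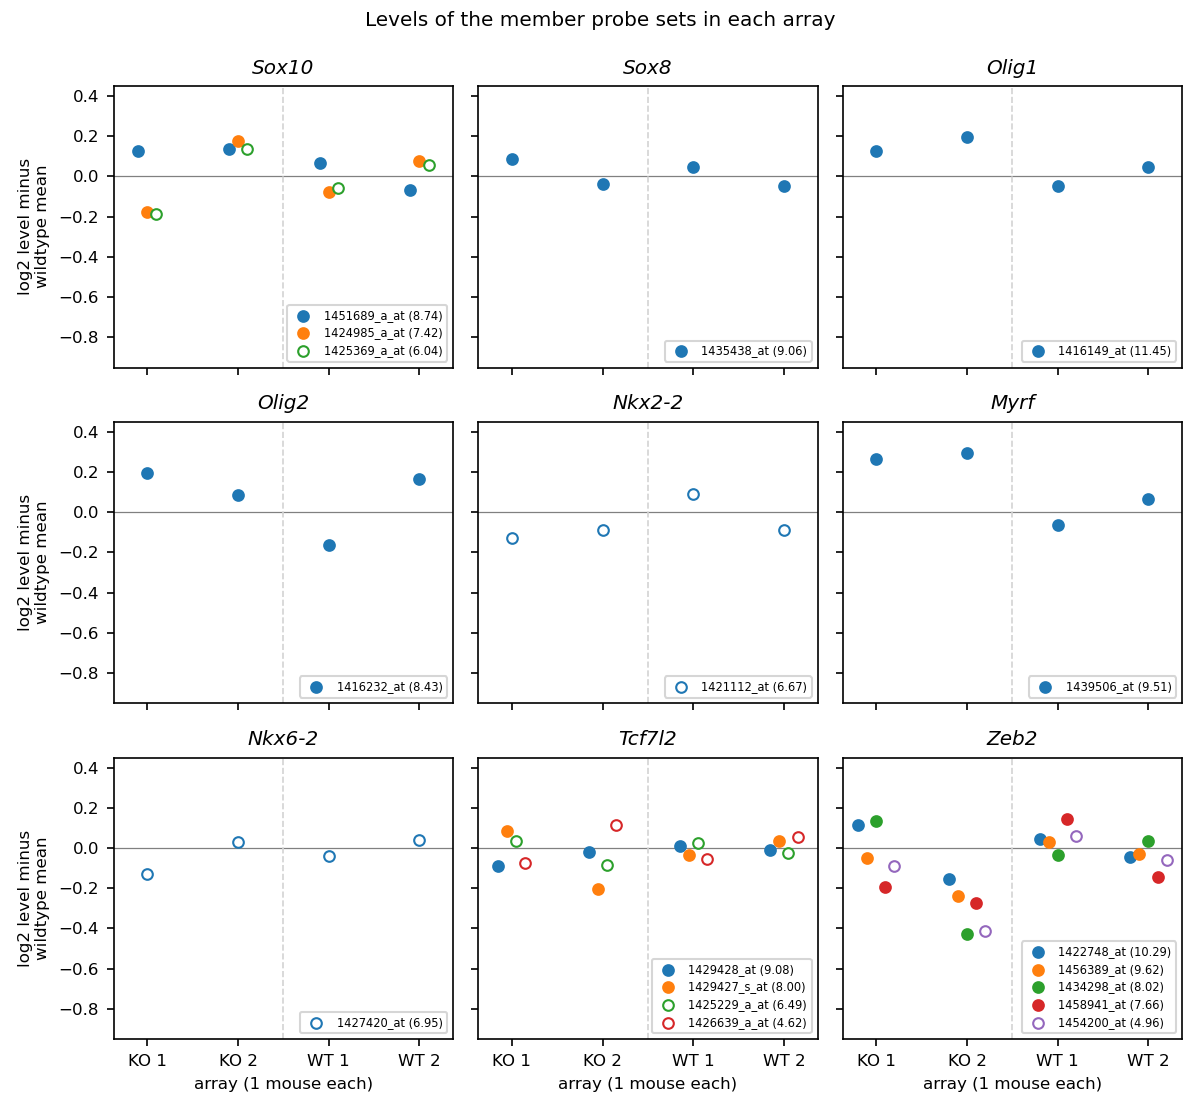
Log2 level of each of the 18 probe sets minus its own wildtype mean (vertical axis), in each of the 4 arrays (KO, Bcas1 knockout; WT, wildtype; 1 mouse each). Colours separate probe sets of a gene, the legend gives the mean log2 level over the 4 arrays, and open points mark probe sets at or below the dim limit of 7.19. Both Myrf and Olig1 knockout points lie above both wildtype points, and all 5 Zeb2 probe sets are lowest in the second knockout array.

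Some of these levels lie within the range that genes silent in the brain give on this array. The deposited values carry no detection calls, so 31 probe sets of genes of sperm, egg, gut, skin and other organs were used to set a dim limit, the 95th percentile of their mean levels, at 7.19. The median of those mean levels was 4.13, so the limit lies well above a typical silent probe set. Of the 18 probe sets 12 lay above the limit. The 6 at or below it were the only ones of Nkx2-2 and Nkx6-2, the dimmest of Sox10, the dimmer 2 of Tcf7l2 and the dimmest of Zeb2. Their mean levels ran from 4.625 (Tcf7l2 1426639_a_at) to 6.945 (Nkx6-2). A change of a gene at a low level can be compressed, so those 6 may say little about their genes. How far each of them was compressed was not tested.

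Myrf showed the largest positive difference of the set. Its single probe set (1439506_at) measured 9.63 and 9.66 in the knockout mice, against 9.30 and 9.43 in the wildtype mice. Both knockout arrays were above both wildtype arrays. The difference was 0.28 (SE 0.081, 95% interval 0.068 to 0.49), which is 1.21-fold, with an unadjusted p of 0.020 and an adjusted p of 1 in limma. It ranked 479th by p among the 45037 probe sets. Of the 18166 probe sets above the dim limit, 0.308% had a difference at least as large in the same, upward direction. The difference of Myrf was not set against downward differences in this share. The difference stayed between 0.22 and 0.35 when any 1 array was left out, and was 0.27 without the second knockout array.

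Sox10 gave no single picture, because its 3 probe sets differed in how they moved. The brightest (1451689_a_at) measured 8.80 and 8.81 in the knockout mice, against 8.74 and 8.61 in the wildtype mice, without overlap. Its difference was 0.13 (SE 0.080, 95% interval -0.080 to 0.34). It was 0.065 without the second wildtype array, so that array carried much of it. The middle one (1424985_a_at) measured 7.25 and 7.60 in the knockout, against 7.35 and 7.50 in wildtype, with a difference of 0 (SE 0.14). The dimmest (1425369_a_at) measured 5.87 and 6.19 in the knockout, against 6.00 and 6.11 in wildtype, a difference of -0.025 (SE 0.13). In these 2 the mouse numbered 1 was lower than the mouse numbered 2 in both genotypes, and the wildtype values lay inside the knockout range. They stood at -0.175 and -0.185 when the second knockout array was left out, and at 0.175 and 0.135 when the first was. Suffix _a_at marks sets whose probes match several transcripts of 1 gene, and the sources used here do not say which Sox10 transcripts each one reads.

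Sox8, the relative of Sox10 that acts beside it in myelinating cells, measured 9.13 and 9.01 in the knockout, against 9.09 and 9.00 in wildtype. The groups overlapped, and the difference was 0.025 (SE 0.084, 95% interval -0.19 to 0.24). Its sign turned when the first knockout array (-0.035) or the second wildtype array (-0.020) was left out. It was 0.085 without the second knockout array. Sox9, the other SoxE gene, which acts in glial precursors and astrocytes, was 0.175 (SE 0.079) higher at its brightest probe set, with no overlap and an adjusted p of 1 in limma.

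Olig1 and Olig2, basic helix-loop-helix factors that lie next to each other on chromosome 16 with 0 protein-coding genes between them, both had positive differences. Olig1, which acts in precursor maturation and repair of myelin, measured 11.49 and 11.56 in the knockout, against 11.32 and 11.41 in wildtype. These values did not overlap, and the difference was 0.16 (SE 0.078, 95% interval -0.043 to 0.36), or 1.12-fold, between 0.115 and 0.205 with any 1 array left out. Olig2, required for precursors to form, measured 8.55 and 8.44 in the knockout, against 8.19 and 8.52 in wildtype. Here the second wildtype array lay between the knockout arrays, and the difference of 0.14 (SE 0.13, 95% interval -0.21 to 0.49) rested on the first wildtype array, at -0.025 without it. It was 0.305 without the second wildtype array, and leaving out the knockout arrays in order gave 0.085 and 0.195. The related gene Olig3, chosen after its values were seen, was dim in every mouse, at 4.06 and 3.69 in the knockout and 3.66 and 3.97 in wildtype.

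The homeodomain factors were dim. Nkx2-2, which times the start of differentiation, measured 6.60 and 6.64 in the knockout, against 6.82 and 6.64 in wildtype. The second mice of both genotypes were equal, and the difference of -0.11 (SE 0.091, 95% interval -0.35 to 0.13) was -0.020 without the first wildtype array and -0.20 without the second. Nkx6-2, a regulator of late oligodendrocytes and of the paranodes where myelin meets the axon, measured 6.84 and 7.0 in the knockout, against 6.93 and 7.01 in wildtype. The groups overlapped, with a difference of -0.050 (SE 0.090, 95% interval -0.28 to 0.18). Leaving out the second knockout array made it -0.13, and leaving out the first made it 0.030.

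**Figure D2:**
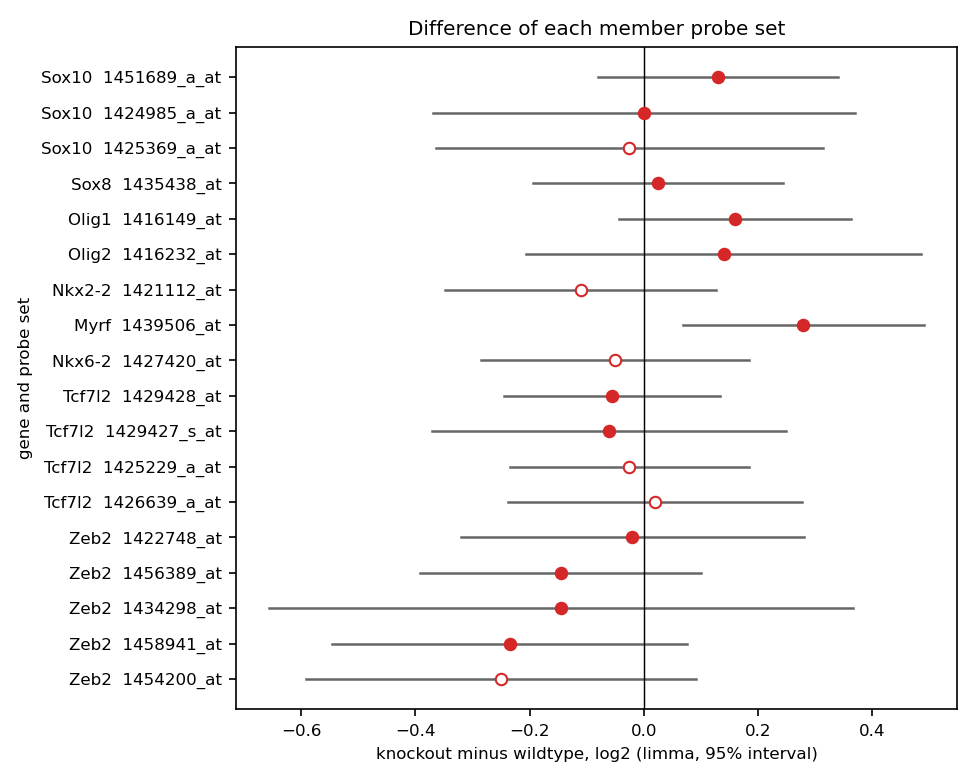
Knockout minus wildtype difference of each probe set on the log2 scale (points) with its 95% interval from limma (lines). Open points are at or below the dim limit. The interval of Myrf, 0.068 to 0.49, lies above 0 before adjustment, and the other 17 intervals span 0.

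Of the genes with several probe sets, Zeb2 was the one whose sets all pointed the same way, down, without any passing the test. The brightest (1422748_at) measured 10.42 and 10.15 in the knockout, against 10.35 and 10.26 in wildtype, a difference of -0.020 (SE 0.11). The next (1456389_at) measured 9.64 and 9.45 in the knockout, against 9.72 and 9.66 in wildtype, and differed by -0.145 (SE 0.094). The groups overlapped at the first and were apart at the second.
Probe set 1434298_at measured 8.23 and 7.67 in the knockout, against 8.06 and 8.13 in wildtype, with a difference of -0.145 (SE 0.20). Probe set 1458941_at measured 7.58 and 7.50 in the knockout, against 7.92 and 7.63 in wildtype, with a difference of -0.235 (SE 0.12). The dim 1454200_at measured 5.0 and 4.68 in the knockout, against 5.15 and 5.03 in wildtype, with a difference of -0.25 (SE 0.13). The last pair had no overlap, so 3 of the 5 sets had both knockout arrays lowest. The second knockout array was below the first in each of the 5.
Much of the Zeb2 difference came from that array. Without it, the 5 differences in the same order were 0.115, -0.050, 0.135, -0.195 and -0.090, and without the first knockout array they were -0.155, -0.24, -0.425, -0.275 and -0.41. The first wildtype array also mattered: without it 1422748_at turned to 0.025 and 1458941_at stood at -0.090, and with the second wildtype array left out 1458941_at stood at -0.38. The second knockout array is the one with nasal transcripts, and their part in the Zeb2 values was not tested. The 5 sets read 1 transcript pool of 1 gene and are not independent of each other. Zeb1, the relative of Zeb2 and chosen after its values were seen, measured 10.54 and 10.50 in the knockout and the same 10.54 and 10.50 in wildtype at its brightest probe set.

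The 4 Tcf7l2 probe sets stayed within 0.06 of 0. The brightest (1429428_at) measured 9.02 and 9.09 in the knockout, against 9.12 and 9.10 in wildtype. The knockout values were just below the wildtype values, and the difference was -0.055 (SE 0.072, 95% interval -0.24 to 0.13). Leaving out the second knockout array gave -0.090, and leaving out the first gave -0.020. Probe set 1429427_s_at measured 8.11 and 7.82 in the knockout, against 7.99 and 8.06 in wildtype, a difference of -0.060 (SE 0.12) that turned to 0.085 when the second knockout array was left out and was -0.205 when the first was. The wildtype values lay between the knockout values. The dimmer sets, 1425229_a_at and 1426639_a_at, differed by -0.025 (SE 0.080) and 0.020 (SE 0.099), and both changed sign when the second knockout array was left out (0.035 and -0.075). Among relatives that also bind beta-catenin, Lef1 differed by 0.020 (SE 0.092) and Tcf7l1 by -0.090 (SE 0.068) at their brightest probe sets (limma adjusted p = 1 for both).

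**Figure D3:**
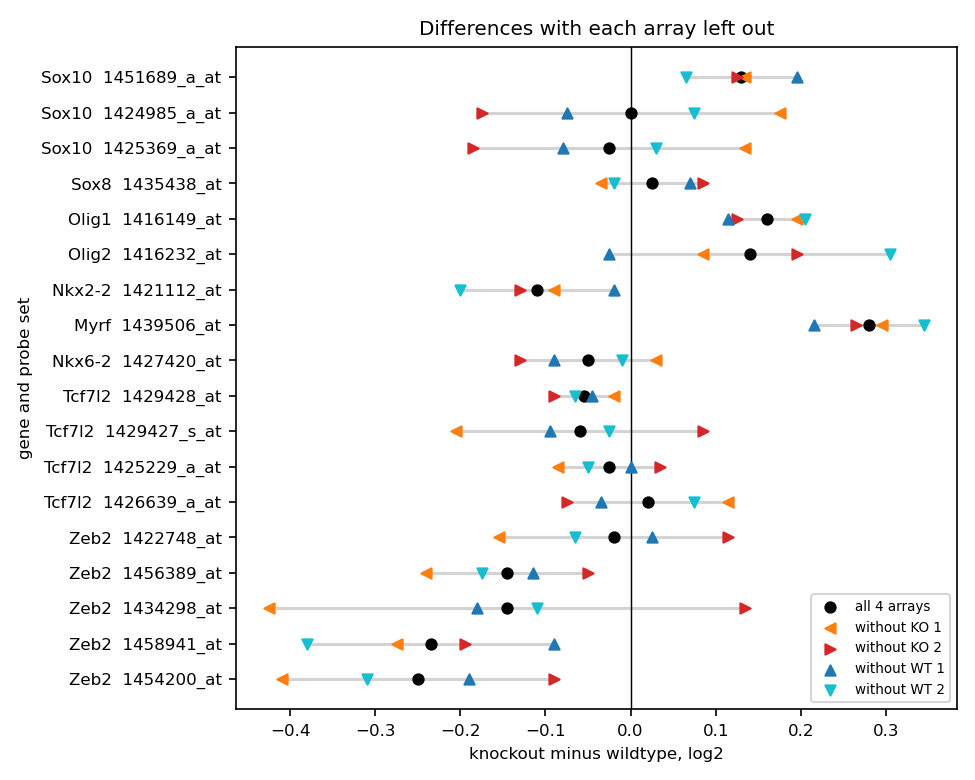
Knockout minus wildtype difference (log2) of each probe set with all 4 arrays (black) and with each array left out in turn (coloured, as in the legend). Myrf, Olig1 and the brightest Sox10 set stay above 0 throughout. Nkx2-2, the brightest Tcf7l2 set and 1456389_at, 1458941_at and 1454200_at of Zeb2 stay below 0 throughout. Of these, Nkx2-2 and 1454200_at are at or below the dim limit. Probe set 1434298_at of Zeb2 runs from -0.425 to 0.135.

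Zeb2 and Nkx2-2 share chromosome 2 with the disrupted gene. In the gene order of GRCm38.p6, 1228 protein-coding genes lie between Zeb2 and Bcas1 and 326 between Nkx2-2 and Bcas1. Such counts are not a genetic distance, and a part of linkage in these values was not tested. Myrf and Tcf7l2 are both on chromosome 19, with 430 protein-coding genes between them. The other factors measured lie on chromosomes 7 (Nkx6-2), 15 (Sox10) and 17 (Sox8).

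Genes that these factors work on and with were compared through lists, each gene read at its brightest probe set. Of 18193 genes read in this way, 51.7% had a positive difference, with a median of 0.0050 and quartiles of -0.050 and 0.065. Both knockout arrays were above both wildtype arrays in 15.5% of them and below in 12.8%. No list member named here passed the test (limma adjusted p = 1 for each).

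Of the myelin genes bound or driven by Sox10 and Myrf, 15 were measured. In the knockout 13 of the 15 had positive differences, against 51.7% of all genes, and 2 had negative ones. In 4 both knockout arrays were highest and in 0 both were lowest, against 15.5% and 12.8% of all genes. The median difference was 0.050 and the range -0.055 to 0.14. Gjb1, a gap junction protein of myelin, measured 7.04 and 7.08 in the knockout, against 6.83 and 7.01 in wildtype, below the dim limit. Fa2h, which hydroxylates myelin lipids, measured 9.39 and 9.47 in the knockout, against 9.29 and 9.36 in wildtype. Cnp, an enzyme of the inner myelin sheath, measured 13.32 and 13.24 in the knockout, against 13.19 and 13.18 in wildtype. Each of these differences, 0.14 (SE 0.091), 0.105 (SE 0.077) and 0.095 (SE 0.073) in that order, was below that of Myrf. Over the whole list the median deviation from the wildtype mean was 0.065 in the first knockout mouse and 0.030 in the second mouse.

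Regulators outside the set spread around 0. Of 22 that promote the lineage 21 were measured, and 13 were positive and 8 negative, with a median of 0.025. In 6 of the 21 both knockout arrays were highest and in 1 both were lowest, against 15.5% and 12.8% of all genes. Sox9 led them, followed by Zfp24, a zinc finger protein needed for myelination, at 0.115 (SE 0.073), and Klf13, at 0.11 (SE 0.076). Of 11 regulators that restrain differentiation, 6 were positive and 5 negative, with a median of 0.020. The SoxD genes Sox5 and Sox6, which hold back maturation, differed by 0.125 (SE 0.11) and 0.095 (SE 0.077).

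Genes of the Wnt and BMP pathways, to which Tcf7l2 and Zeb2 answer, had a median of 0.020 over 13 of 14 measured. Of these 8 were positive and 5 negative. The list mixes brakes on these pathways with other members, so its median does not measure the strength of the signals. Rnf43, a brake on Wnt receptors, differed by 0.215 (SE 0.084) from a dim level. Notum, which inactivates Wnt proteins, differed by -0.125 (SE 0.071), also from a dim level, and Apcdd1, a Wnt inhibitor found in oligodendrocytes, by -0.12 (SE 0.13). Precursor genes had a median of -0.035 over 7 of 8 measured, 3 positive and 4 negative. Pdgfra, the growth factor receptor of precursors, differed by 0.155 (SE 0.093), and Gpr17, of cells committed to differentiate, by -0.050 (SE 0.082).

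Markers of other cells were set beside the factors that these cells also make. Of thalamic neuron genes, set beside Tcf7l2, all 10 were measured and 0 passed the test. Of the differences 8 were negative and 2 positive (Slc17a6, a glutamate transporter, at 0.040 and Synpo2 at 0.035, both chosen after their values were seen), and in 7 both knockout arrays were below both wildtype arrays, against the 12.8% above. The list, like the others, was chosen with earlier results of these data known. Its genes are also not independent of each other, so the comparison with this share is not a test. The median was -0.13. The average level of the list was 8.93 and 9.04 in the knockout and 9.12 and 9.11 in wildtype. Tnnt1, a troponin used as a thalamic marker, measured 7.79 and 8.11 in the knockout, against 8.29 and 8.18 in wildtype. Prkcd, a kinase of thalamic relay neurons, measured 9.18 and 9.29 in the knockout, against 9.53 and 9.35 in wildtype. Slitrk6, an adhesion protein, measured 6.10 and 5.95 in the knockout, against 6.38 and 6.34 in wildtype, below the dim limit. The part of these cells in the Tcf7l2 values was not tested.

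Neuron and microglia lists, beside Zeb2, had medians of -0.0075 (10 of 10 measured, 4 positive and 6 negative) and -0.010 (7 of 8 measured, 2 positive and 4 negative). The neuron list averaged 11.93 and 11.92 in the knockout and 11.95 in both wildtype mice. Both knockout arrays were lowest in 3 of the 10 genes and highest in 0, against 12.8% and 15.5% of all genes. The microglia list averaged 8.80 and 8.91 in the knockout and 8.85 and 8.87 in wildtype. Their part in the Zeb2 values was not tested.

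Astrocyte genes, beside Sox9, had a median of 0.010 (8 of 8 measured, 5 positive and 3 negative), with Gfap at 0.285 (SE 0.081). Vascular genes had 8 of 8 positive differences, a median of 0.075 and averages of 8.99 and 8.97 in the knockout and 8.86 and 8.87 in wildtype. Choroid plexus genes had a median of 0.075, with 5 of 8 positive. Schwann cells, the myelinating cells of nerves, also make Sox10. Their list had 4 genes measured, 2 of them above the dim limit, with averages of 7.57 and 7.62 in the knockout and 7.62 and 7.52 in wildtype. Blood cell genes were positive in 7 of 7, with averages of 6.17 and 6.59 in the knockout and 5.97 and 5.82 in wildtype. Of these 0 were above the dim limit, and their differences ran from 0.010 to 1.295. In 5 both knockout arrays were highest and in 0 both were lowest, against 15.5% and 12.8% of all genes. The largest differences were those of S100a9 (1.295, SE 0.27), S100a8 (1.17, SE 0.23) and Ngp (0.50, SE 0.21). The smallest were those of Alas2 (0.075, SE 0.19) and Hba-a1 (0.010, SE 0.19), both chosen after their values were seen. The list average therefore does not describe all its genes alike. Pituitary genes, 1 of 7 above the dim limit, averaged 5.64 and 5.88 in the knockout and 5.56 and 5.64 in wildtype. Their part in the levels of the 9 factors was not tested.

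**Figure D4:**
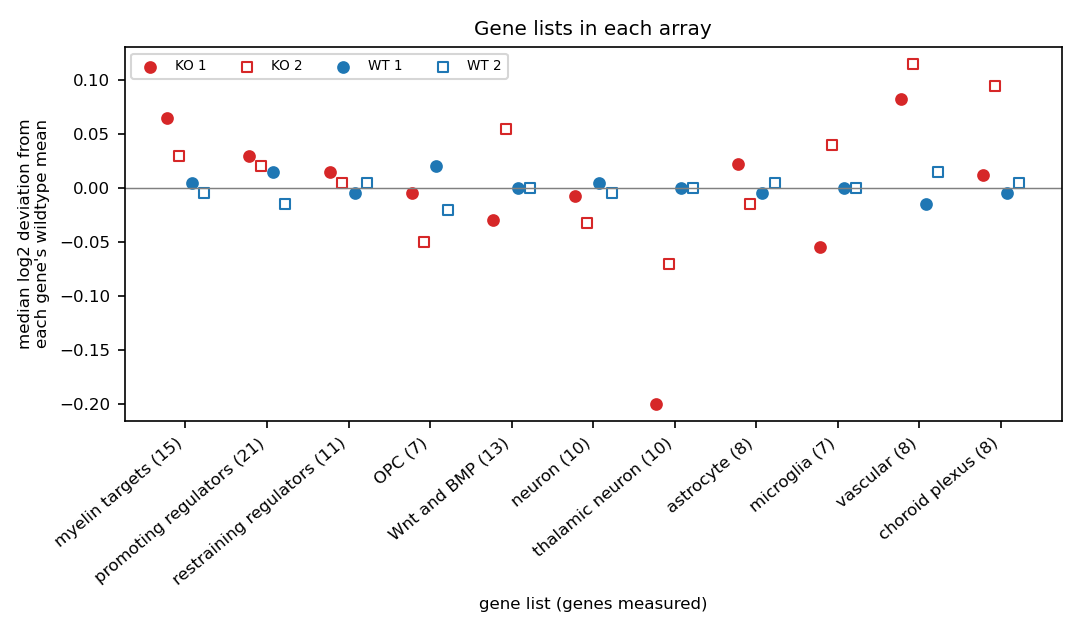
Median deviation of the genes of each list from their own wildtype mean (log2, vertical axis), in each array (KO, Bcas1 knockout; WT, wildtype), with the number of genes measured in brackets. OPC, oligodendrocyte precursor. The thalamic list lies at -0.20 and -0.070 in the knockout arrays, and the myelin list at 0.065 and 0.030.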

How the data were processed

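Total RNA of 1 brain per array was labelled with a 3' IVT kit from 100 ng, per the labels' protocols, and hybridised to 1-colour Affymetrix arrays. The authors deposited 1 log2 value per probe set and array, which per the submitters' processing notes came from RMA, a method that corrects background, normalizes between arrays and summarises the probes of a set. The sources used here do not give its software or settings. Of 45101 probe sets, 64 controls were left out. Genes were named from the platform annotation. The arrays come from separate mice by their labels, and no batch is given.

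Knockout minus wildtype was fitted in limma 3.58.1 (R 4.3.3) with lmFit and eBayes on all 45037 probe sets, with 2 residual and 2.74 prior degrees of freedom, and the method was tested on simulated data. Alternatives were median centring, repeated quantile normalization, a dim filter, an intensity trend with robust variance, a replicate block, leaving out arrays, 1 value per gene, and leaving out _x_at sets. The 10 members and all gene lists were chosen with earlier results of these data known. All members are reported, with Bcas1. Of the other lists, genes among the 3 largest differences are named for some. The microglia, vascular, choroid plexus, nasal, pituitary, Schwann cell and silent-gene lists are given without named genes. Genes used to check tissue identity or as relatives were added outside that rule.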

Additional observations from a re-analysis of the deposited data

How the results depend on the processing

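Of the settings that kept all 4 arrays, only median centring and repeated quantile normalization could move the difference of a single probe set. Under them no difference turned its sign. The other fits of single probe sets changed only the variance or the probe sets entered. Their differences equalled those of the fit of all arrays by design. The mean of the probe sets of a gene gives no difference of a single probe set. Sox10 1424985_a_at, at 0 in the fit of all arrays, stood at 0.010 with median-centred arrays and 0.0088 with repeated quantile normalization. None passed the threshold in limma under any setting, with a lowest adjusted p of 0.573. Of the 72 values with 1 array left out, 13 changed sign. Sox10 1424985_a_at, with no sign of its own, is not among these and ran from -0.175 to 0.175. The ranges over the 4 left-out arrays were -0.025 to 0.305 for Olig2, -0.035 to 0.085 for Sox8, -0.13 to 0.030 for Nkx6-2 and -0.185 to 0.135 for Sox10 1425369_a_at. For Tcf7l2 they were -0.205 to 0.085 for 1429427_s_at, -0.085 to 0.035 for 1425229_a_at and -0.075 to 0.115 for 1426639_a_at. For Zeb2 they were -0.155 to 0.115 for 1422748_at and -0.425 to 0.135 for 1434298_at. With 1 array in a genotype, that array is assumed to vary like the others.

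The count of probe sets called over the whole table, 2 in the fit of all arrays, was 1 with the dim filter and with the brightest probe set of a gene, 10 with an intensity trend and robust variance, and 0 with the mean of the probe sets of a gene, without _x_at sets and with any array left out. Fewer features entered the filtered and per-gene fits, and otherwise the cause was not tested. With mouse number as a replicate block it was 0. The deviations of same-numbered mice from their group means had a correlation of 0.24 across all probe sets and 0.42 across those above the dim limit. With 2 pairs, and no shared origin in the labels, the number was taken as a name only. The members' count was 0 under each setting. The arrays number 4, and 6 of the 18 probe sets were at or below the dim limit.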
